A study of Mus musculus with 10 samples.

Results

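Respiratory complex I is encoded in the nucleus largely by genes whose symbols begin with Nduf, and 43 such genes were measured in dorsal root ganglia (DRGs) of Lkb1 KO and WT mouse embryos. The members were all symbols starting with Nduf among probe sets that the platform's annotation tied to exactly 1 gene, out of 19938 genes chosen the same way. They comprised 34 subunits of the complex, 7 assembly factors (Ndufaf1 to Ndufaf7) and 2 genes that carry the name but act outside complex I (Ndufa4 and Ndufa4l2). Ndufb1 and Ndufb4 were not analysed here as single genes. DRGs hold the cell bodies of sensory neurons and were taken at E13.5. The Lkb1 KO embryos carried floxed Lkb1 (gene symbol Stk11, a kinase that activates AMPK) and a Wnt1-Cre transgene. Neurons and glia of the DRG both descend from the neural crest, where this Cre is active, so the deletion is not restricted to neurons, and some central nervous tissue expresses the Cre as well. The WT group consisted of wild-type embryos of that age, and the labels name no treatment of either group. According to the methods, the WT controls were littermates and the mice had a mixed genetic background. Each group had 5 samples, each 1 pool of DRGs from 2 embryos hybridised to 1 one-colour array, so n counts pools. Values are log2 RMA values, in which 1 unit is a doubling, and a log2 fold change is the Lkb1 KO mean minus the WT mean.

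Complex I takes electrons from NADH, passes them along iron-sulphur clusters to ubiquinone and pumps protons across the inner mitochondrial membrane. Its matrix arm is built of the N module, where NADH is oxidised, and the Q module, where quinone is reduced. Its membrane arm holds the mitochondrially encoded core subunits with accessory subunits around them, and the assembly factors help to build or modify the parts but are absent from the finished enzyme. Growing sensory axons draw on mitochondrial ATP, and Lkb1 is a known regulator of cellular energy balance, so the comparison asked whether transcripts of the entry enzyme of the respiratory chain differed without Lkb1.

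The libraries were checked first. Stk11 itself was lower in every Lkb1 KO sample (7.68 to 7.94) than in any WT sample (8.51 to 9.08), with a log2 fold change of -0.92 (limma adjusted p = 0.000115). Efhd1, a mitochondrial calcium-binding protein gene, had a log2 fold change of -1.58 (limma adjusted p = 1.61e-07). Replicates 2 and 5 of Lkb1 KO stood apart in Y-linked signal: Eif2s3y, a Y-linked translation factor gene, read 4.66 and 4.90 there and 9.75 to 10.7 in the remaining 8 pools. The fit was therefore repeated without both, and 0 members were called higher and 0 lower. Some of the results below are also given without these 2 replicates. Xist, a gene active in female cells, read 4.48 to 5.46 in WT replicates 1, 3 and 5 and in Lkb1 KO replicate 3. It read 11.70 to 12.37 in the other pools, so the sex signal of the groups differed beyond Lkb1 KO replicates 2 and 5. A fit with a Y-linked covariate also called 0 members higher and 0 lower. Lkb1 KO replicate 3 stood apart in skeletal muscle genes, with a list median of 0.431 above the WT means, against -0.00284 to 0.0909 in the other Lkb1 KO pools; no member was called without it. Markers of the labelled tissue were present in every sample, with the sensory neuron gene Isl1 at 11.4 to 11.8 and the glial gene Sox10 at 9.06 to 9.48. The array medians differed by at most 0.0689, and the number of arrays limited the precision.

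No complex I gene passed the main test, which had no block for the replicate number, in either direction. Of the 43 members, 0 were higher and 0 lower at a limma adjusted p under 0.05, where 2.49% of all genes tested were higher and 1.38% were lower. The count was also 0 at an adjusted p under 0.01 (1.16% and 0.411% of all genes) and with a per-gene analysis of variance (1.3% and 0.637%). With the replicate block or with array weights 1 member was lower, without Lkb1 KO replicate 1 there were 2 and without Lkb1 KO replicate 2 there was 1; these genes are described below. The fitted differences were small and mostly negative. The log2 fold change was below 0 for 37 of the 43 members (86%), against 50.9% of all genes tested, and the members' median was -0.0613, against -0.0017 over all genes. It was below -0.1 for 11 members (25.6%), against 11.6% of all genes, and above 0.1 for none of them. At an unadjusted p under 0.05, limma had 6 members lower (14%; 7.77% of all genes) and 0 higher (7.51% of all genes). These 6 were Ndufa11, Ndufaf5, Ndufs3, Ndufaf6, Ndufaf3 and Ndufaf7. The ranges of the genotypes were separate, with Lkb1 KO the lower, for 2 members, Ndufs3 and Ndufaf6 (4.65%), where 2.24% of all genes did so, and no member had the opposite order (3.09% of all genes).

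**Figure D1:**
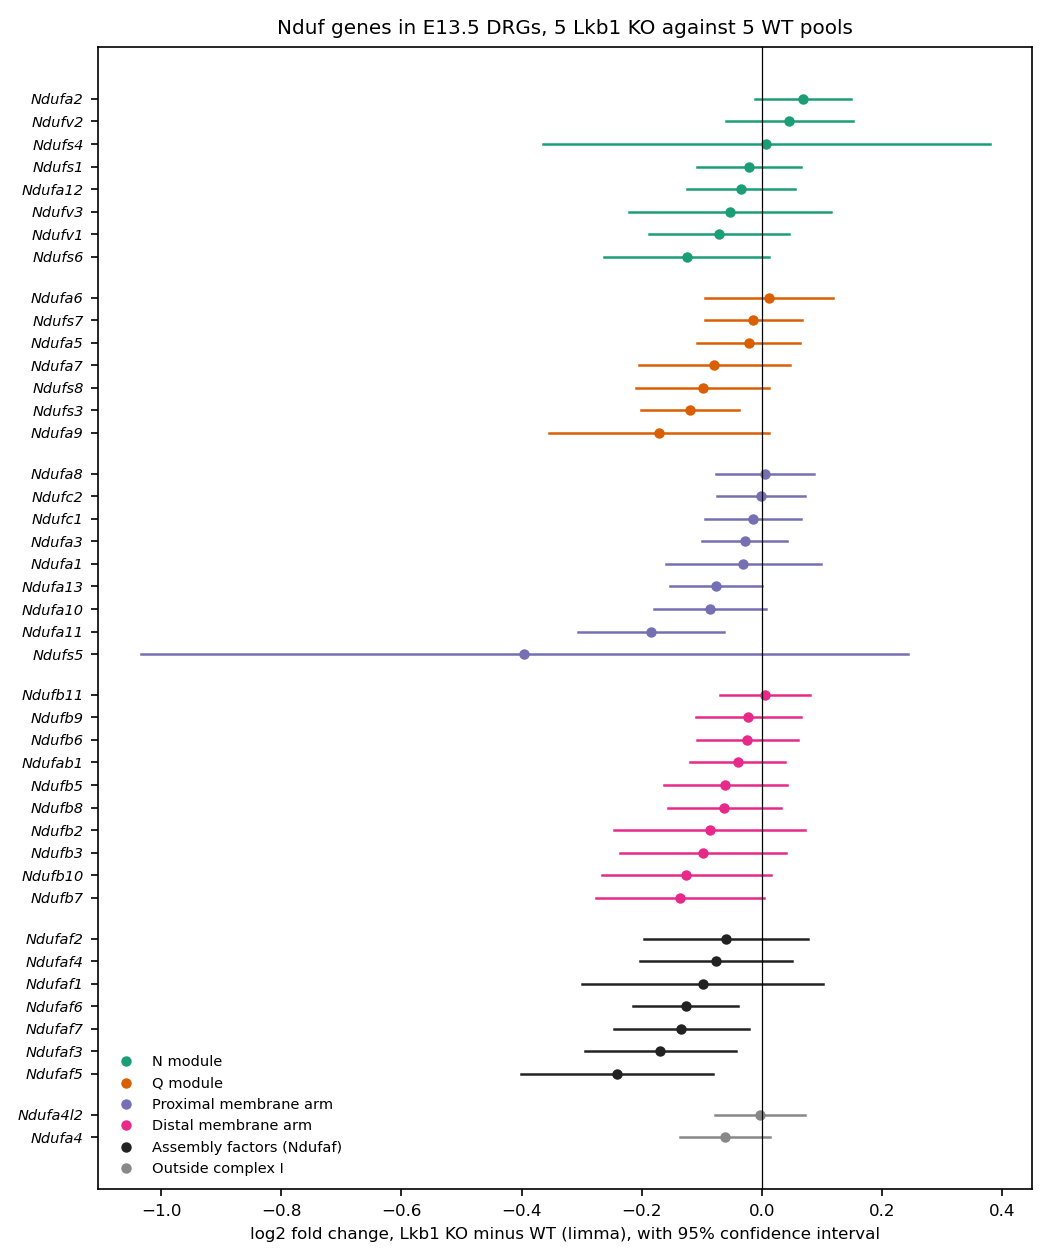
Log2 fold change (Lkb1 KO minus WT, x axis) of each of the 43 Nduf genes (y axis, grouped by module), as points with 95% confidence intervals from limma, n = 5 pools a group. Most points lie left of 0, with differences from -0.40 for Ndufs5 to 0.07 for Ndufa2. The intervals of Ndufs4 and Ndufs5 are the widest, and the 7 assembly factors all lie left of 0.

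The catalytic core showed only small differences. These are the conserved subunits that bind NADH, the flavin and the iron-sulphur clusters or line the quinone site, and 6 were analysed. Their log2 fold changes ran from -0.12 to 0.05 with a median of -0.0466, and none passed the test. Ndufs3, a Q module subunit next to the quinone site, had WT values of 9.89, 9.99, 9.86, 9.91 and 9.94 in replicates 1 to 5 and Lkb1 KO values of 9.83, 9.82, 9.76, 9.75 and 9.84. The groups did not overlap. Its log2 fold change was -0.12 (standard error 0.038, limma adjusted p = 0.12), which put the Lkb1 KO level at 92% of WT. An exact two-sided permutation test over all assignments of samples to genotypes gave p = 0.00794, the smallest it can give. Groups that do not overlap always give this value, so the test only restates the separation. The exact permutation test that exchanges labels only within replicate numbers gave p = 0.0625, again the smallest possible, so that test could not pass 0.05. Ndufs8, which holds iron-sulphur clusters near the quinone site, had WT values of 10.66, 10.81, 10.73, 10.66 and 10.63 and Lkb1 KO values of 10.75, 10.53, 10.63, 10.52 and 10.57. Replicate 1 of Lkb1 KO lay within the WT range and the other 4 lay below it. Its mean difference was -0.099 on the log2 scale (standard error 0.051, limma adjusted p = 0.406), and -0.064 without Lkb1 KO replicates 2 and 5.

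Among the modules, the N module (8 genes) had a median log2 fold change of -0.0284 and held the member with the highest value of all, Ndufa2 (0.07, limma adjusted p = 0.433). The Q module (7 genes) had a median of -0.079, the accessory subunits of the proximal membrane arm (9 genes) -0.0308 and those of the distal membrane arm (10 genes) -0.0618. The number of members below 0 was 5 of 8, 6 of 7, 8 of 9 and 9 of 10 in that order. No member of any module passed the test, and differences between modules were not tested.

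In the membrane arm, Ndufa11 had the smallest p of the family. This accessory subunit sits in the membrane beside the core and helps to hold the complex together. Its WT values were 9.70, 9.88, 9.76, 9.76 and 9.81, and its Lkb1 KO values were 9.79, 9.60, 9.54, 9.51 and 9.55. Lkb1 KO replicate 1 lay among the WT samples and the other 4 lay below all of them. On the log2 scale the difference was -0.18 (standard error 0.056, limma adjusted p = 0.102; exact permutation p = 0.0317), and the mean was 88% of WT. Without Lkb1 KO replicate 1 it passed the test, at -0.23 (limma adjusted p = 0.011; 1.74% of all genes were lower in that fit), and with array weights it did so at -0.19 (limma adjusted p = 0.0423; 1.89% of all genes lower).

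Ndufa13, an accessory subunit also known as GRIM-19, had WT values of 8.32, 8.35, 8.42, 8.30 and 8.37 and Lkb1 KO values of 8.26, 8.30, 8.31, 8.23 and 8.27. The Lkb1 KO sample was the lower one at each replicate number, an order whose share over all genes was not counted. Its log2 fold change was -0.076 (standard error 0.036, limma adjusted p = 0.334; exact permutation p = 0.0159). Ndufb7, a distal-arm subunit on the intermembrane-space side, had WT values of 7.79, 7.79, 7.85, 7.80 and 7.72 against 7.77, 7.74, 7.71, 7.39 and 7.67 in Lkb1 KO. The Lkb1 KO sample was again the lower one at each replicate number, and replicate 4 of Lkb1 KO was far below the rest. Its mean difference of -0.14 on the log2 scale (standard error 0.064, limma adjusted p = 0.342; exact permutation p = 0.0238) was -0.07 without that sample.

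The 7 assembly factors all had negative log2 fold changes, from -0.24 to -0.06 with a median of -0.127, where 50.9% of all genes tested were below 0. At an unadjusted p under 0.05 in limma, 4 of them (57.1%) were lower, against 7.77% of all genes tested. None passed the adjusted test. Ndufaf5, a member of the methyltransferase family that hydroxylates an arginine of Ndufs7, had WT values of 7.60, 7.69, 7.84, 7.64 and 7.60 and Lkb1 KO values of 7.36, 7.64, 7.58, 7.33 and 7.28. The Lkb1 KO sample was the lower one at every replicate number, and 4 of 5 lay below all WT samples. The difference of -0.24 on the log2 scale (standard error 0.074) put Lkb1 KO at 84.6% of WT and was the largest among the assembly factors. The adjusted p from limma was 0.107, and 0.0133 with the replicate number as a block, a fit in which 2.83% of all genes were lower and 3.59% higher and Ndufaf5 was the only member called. It was also called without Lkb1 KO replicate 2 (-0.29, limma adjusted p = 0.0476; 0.928% of all genes lower). The exact permutation p was 0.0317.

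Ndufaf6, a factor that acts early in assembly, had WT values of 7.17, 7.31, 7.15, 7.25 and 7.18 and Lkb1 KO values of 7.07, 7.14, 7.11, 7.03 and 7.07. The groups did not overlap. Their means differed by -0.13 on the log2 scale (standard error 0.040, limma adjusted p = 0.122; exact permutation p = 0.00794), or 91.6% of WT. Ndufaf3, which works with Ndufaf4 at an early step, had 8.85, 8.88, 8.98, 8.83 and 8.93 in WT and 8.80, 8.76, 8.66, 8.54 and 8.86 in Lkb1 KO. Again the Lkb1 KO sample was lower at each number, with replicate 4 the lowest and replicate 5 inside the WT range. The log2 fold change was -0.17 (standard error 0.058, limma adjusted p = 0.157; exact permutation p = 0.0238), or 89% of WT.

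Ndufaf7, a protein arginine methyltransferase of the matrix, had WT values of 7.63, 7.74, 7.72, 7.74 and 7.66 and Lkb1 KO values of 7.73, 7.56, 7.59, 7.43 and 7.51. As for Ndufa11, replicate 1 of Lkb1 KO lay in the WT range and the other 4 lay below it. The log2 fold change was -0.13 (standard error 0.052, limma adjusted p = 0.221; exact permutation p = 0.0397), and -0.17 (limma adjusted p = 0.0484) without that replicate. Ndufaf2, a late factor related in sequence to the subunit Ndufa12, had the smallest difference of the 7. Its WT values were 7.91, 7.95, 7.96, 7.83 and 8.06 and its Lkb1 KO values were 8.05, 7.95, 7.90, 7.71 and 7.80. The groups overlapped and the log2 fold change was -0.06 (standard error 0.063, limma adjusted p = 0.745). That value was -0.10 without Lkb1 KO replicate 1, -0.031 without WT replicate 5 and -0.016 without Lkb1 KO replicate 4. The remaining factors, Ndufaf1 (-0.10) and Ndufaf4 (-0.08), had adjusted p-values of 0.706 and 0.625 from limma.

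**Figure D2:**
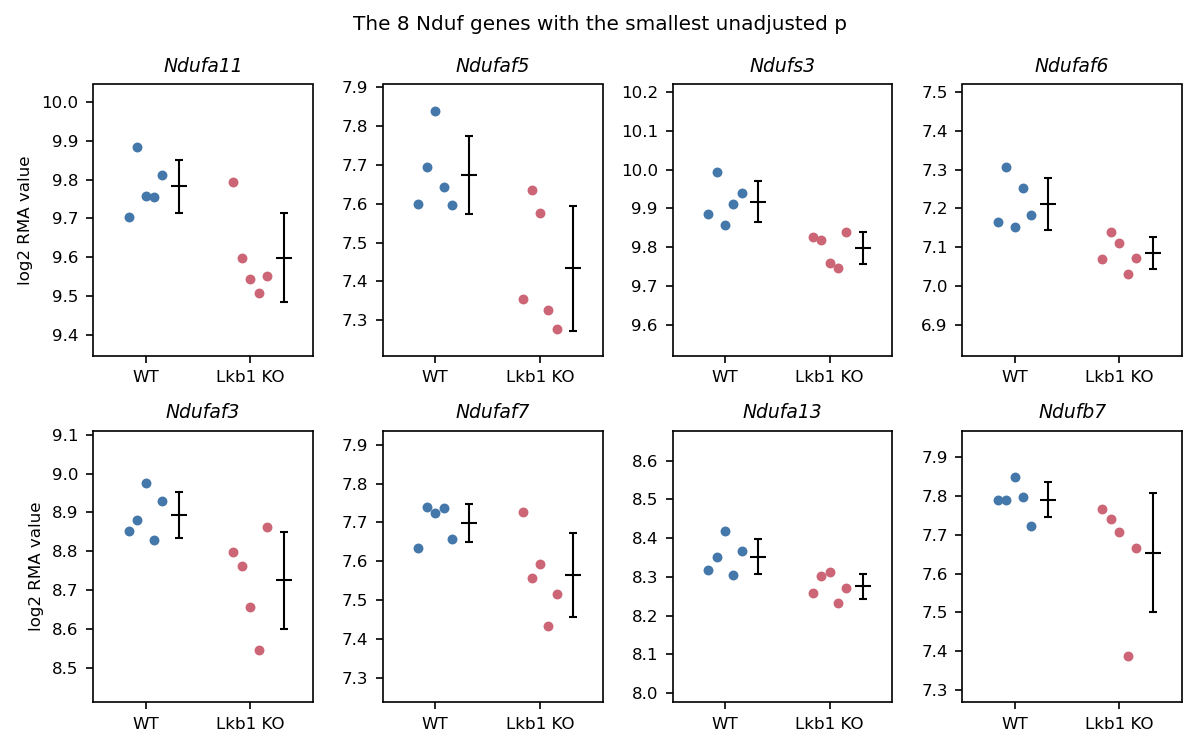
Log2 RMA value (y axis) in each of 5 WT and 5 Lkb1 KO pools (points) for the 8 Nduf genes with the smallest unadjusted p, with the group mean and SD beside the points. Each panel has its own axis, which does not start at 0 and spans the same range of log2 values. Ndufs3 and Ndufaf6 are the only panels in which the groups do not overlap, and Ndufb7 has 1 low Lkb1 KO sample at 7.39.

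Set side by side, the 7 assembly factors named Ndufaf had a more negative median than the subunits. The 13 measured assembly factors not named Nduf, described below, had a median of -0.00237, so the contrast does not extend to assembly factors as a class. The Ndufaf genes were also dimmer, with WT list means of 7.90 to 7.99 against 9.45 to 9.51 for the subunits. Their median standard error was larger, at 0.0582 against 0.0454. The median log2 fold change was -0.127 over the 7 assembly factors and -0.0464 over the 34 subunits, of which 28 (82.4%) were below 0, so the medians differed by -0.0806. For each sample, the median deviation of the assembly factors from their WT means was -0.0941, -0.0735, -0.099, -0.266 and -0.135 in Lkb1 KO replicates 1 to 5 and between -0.0454 and 0.0369 in WT. Every Lkb1 KO sample was thus below every WT sample, with replicate 4 the lowest. For the subunits, the same quantity was 0.0154, -0.0292, -0.0482, -0.0905 and -0.0775 in Lkb1 KO and between -0.0151 and 0.0107 in WT. Here replicate 1 was above all WT samples and the other 4 were below them. The gap between assembly factors and subunits was -0.11, -0.0443, -0.0508, -0.176 and -0.0575 in Lkb1 KO and between -0.0347 and 0.0262 in WT, again with no overlap. Without Lkb1 KO replicates 2 and 5 the medians were -0.141 for the assembly factors and -0.0404 for the subunits. The members of each list were measured in the same samples and are not replicates, and the difference between the lists was not tested.

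**Figure D3:**
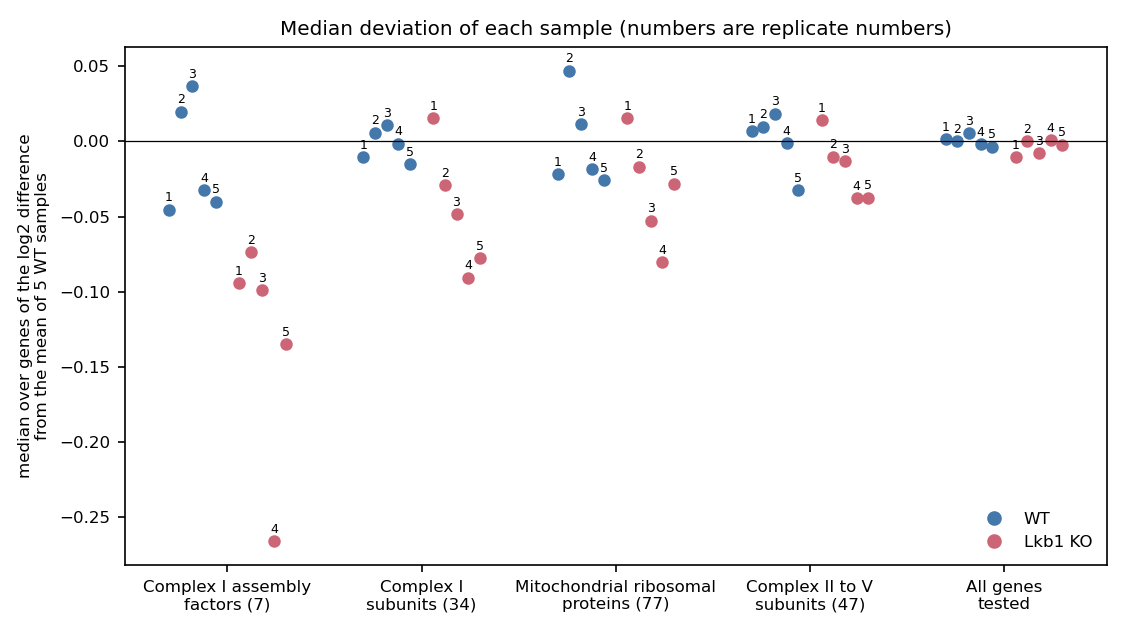
Median over the genes of a list of the log2 difference from the mean of the 5 WT samples (y axis), for each sample (points labelled with the replicate number, WT beside Lkb1 KO) and each of 5 lists (x axis, number of genes in brackets). The Ndufaf assembly factors of all 5 Lkb1 KO samples lie below those of all WT samples, at -0.0735 to -0.266. The medians of all genes tested stay between -0.0105 and 0.00525.

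Complex I assembly factors that are not named Nduf had values on both sides of 0. Of 13 measured, 7 had a log2 fold change below 0, the median was -0.00237 and none passed the test. The smallest p-values belonged to the membrane protein gene Tmem126b (-0.14, limma adjusted p = 0.289), Lyrm2 (-0.11, adjusted p = 0.374) and Tmem126a (0.09, adjusted p = 0.454). Of 47 genes listed for complexes II to V by their symbols alone, 29 (61.7%) were below 0, with a median of -0.0111, and none passed. Their lowest p-values were those of Cox7a2l (-0.12), Cox6b1 (-0.09) and Uqcrc2 (-0.08), with limma adjusted p-values of 0.255, 0.316 and 0.337. Of 77 mitochondrial ribosomal protein genes, 55 (71.4%) were below 0, with a median of -0.0382 and none called. The largest differences among the 3 of lowest p were those of Mrpl48 (-0.15) and Mrpl35 (-0.10), and Mrps9 was at -0.08. At an unadjusted p under 0.05, 2 genes of complexes II to V (4.26%) and 4 mitochondrial ribosomal protein genes (5.19%) were lower, against 7.77% of all genes tested.

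**Figure D4:**
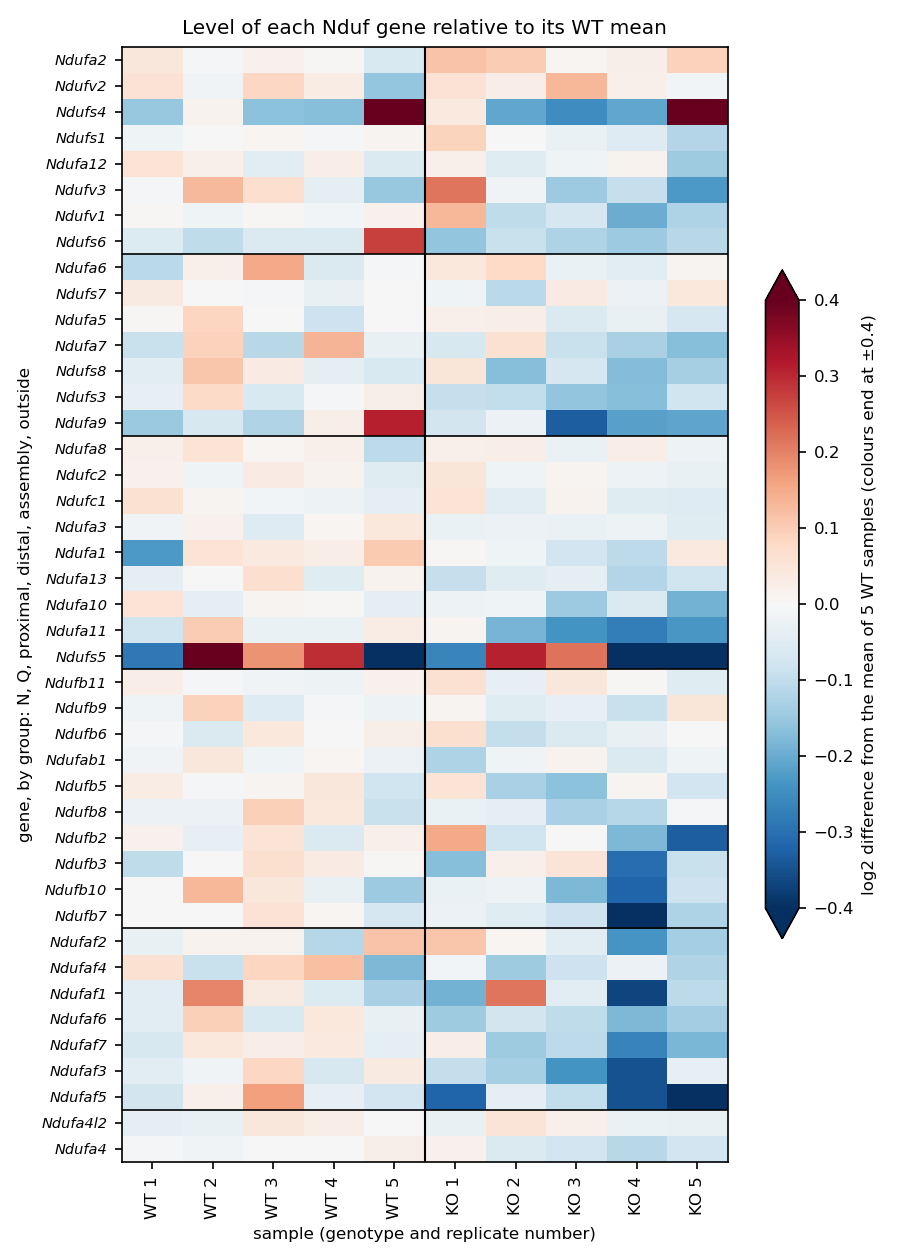
Log2 difference of each Nduf gene (rows, by module) from its mean over the 5 WT samples in each of the 10 samples (columns), with colours ending at plus or minus 0.4. Lkb1 KO replicate 4 is blue for most assembly factors, Ndufs4 is high in both samples numbered 5, and Ndufs5 varies the most.

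Marker genes of cell types moved with genotype in the same samples. Among the 19938 genes, calls made up 2.49% (higher) and 1.38% (lower) in the main fit. With the replicate block these shares were 3.59% and 2.83%. Of 11 fibroblast and mesenchyme markers, 9 passed the test as higher in Lkb1 KO. Their list means were 8.93 to 9.07 in WT and 9.42 to 9.50 in Lkb1 KO. Fbln5 had the smallest p and the largest log2 fold change of this list, at 1.53, where the list median was 0.303. Postn was at 0.36 and Col1a2 at 0.30 on the log2 scale. Of 11 proliferation genes, 7 were higher, with means of 8.58 to 8.82 and 8.93 to 9.23. Of 11 sensory neuron markers, 3 transcription factor genes (Isl1, Isl2 and Prrxl1) were lower, 7 with the replicate block, and the list means were 9.36 to 9.54 in WT and 9.19 to 9.31 in Lkb1 KO. Of 12 general neuron markers, only Elavl4 was lower (2 genes with the replicate block), with means of 11.65 to 11.75 and 11.56 to 11.64. The log2 fold change was below 0 for all 11 sensory neuron markers (median -0.194) and for 10 of the 12 general ones (median -0.119). At an unadjusted p under 0.05 in limma, 9 sensory and 7 general neuron markers were lower, against 7.77% of all genes tested. Among the remaining lists, 1 of 8 glial and crest markers was lower (Cdh19, -0.50), while 5 of the 8 had a log2 fold change above 0, the median was 0.0467 and Egfl8, at 0.29, was called higher with the replicate block (limma adjusted p = 0.00292). Of 9 endothelial markers Cldn5 was higher, and 2 were with the replicate block. None of 8 pericyte genes passed, and 2 were higher with the replicate block. None of 8 macrophage, 4 red cell and 9 skeletal muscle genes passed, with the block or without. The part of these shifts in the values of the complex I genes was not tested, and fewer cells of a type and less RNA per cell cannot be told apart in pooled ganglia.

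Probe sets of the same gene gave a second reading for 5 members. The differences between their log2 fold changes were 0.0186 to 0.0924 with a median of 0.0422, close to the median of 0.0414 over all 777 genes with 2 probe sets. For Ndufs3 the second probe set had a log2 fold change of -0.14 beside -0.12 for the brighter one. Its values were 9.64, 9.84, 9.62, 9.68 and 9.72 in WT and 9.58, 9.63, 9.52, 9.46 and 9.62 in Lkb1 KO, so that here the groups overlapped. For Ndufa11 the second probe set gave -0.09 beside -0.18. It read 9.62, 9.67, 9.73, 9.65 and 9.81 in WT and 9.68, 9.56, 9.51, 9.71 and 9.56 in Lkb1 KO, and Lkb1 KO replicate 4, the lowest sample of the brighter probe set, was the highest of its group in this one.

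Ndufab1, the mitochondrial acyl carrier protein, had -0.04 on the brighter probe set and -0.08 on the second. The brighter one read 9.90, 9.96, 9.90, 9.92 and 9.89 in WT and 9.79, 9.90, 9.93, 9.86 and 9.89 in Lkb1 KO, and its difference was -0.019 without Lkb1 KO replicate 1. The other pairs differed in sign. Ndufb11, a membrane-arm subunit encoded on the X chromosome, had 0.0057 and -0.03, with values of 11.31, 11.27, 11.27, 11.26 and 11.30 in WT and 11.34, 11.25, 11.33, 11.29 and 11.23 in Lkb1 KO on the brighter probe set. Ndufc1, a small membrane-arm subunit, had -0.01 and 0.06, with 9.30, 9.25, 9.23, 9.22 and 9.20 in WT and 9.30, 9.19, 9.25, 9.19 and 9.19 in Lkb1 KO. Thus 3 of 5 pairs had the same sign, against 71.4% of the genes with 2 probe sets, and no probe set passed the test when all were tested.

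Some members varied far more between samples than between genotypes; these were singled out after their values were seen. Ndufs4, a subunit of the N module whose loss in mice causes an encephalopathy, had WT values of 10.35, 10.52, 10.34, 10.34 and 10.98 and Lkb1 KO values of 10.54, 10.30, 10.25, 10.30 and 11.17. Both samples numbered 5 were high, while the genotypes differed by 0.0076 (standard error 0.17, limma adjusted p = 0.991). Ndufs5, an accessory subunit of the proximal membrane arm, had 7.08, 7.78, 7.55, 7.66 and 6.76 in WT and 7.10, 7.67, 7.58, 6.32 and 6.17 in Lkb1 KO. Its samples spread over more than 1 unit within each group, and the log2 fold change of -0.40 (standard error 0.29, limma adjusted p = 0.61) was within that spread. It was -0.23 without Lkb1 KO replicate 4 and -0.20 without Lkb1 KO replicate 5. A further probe set, shared by Ndufs5 and its pseudogene Ndufs5-ps, read 8.41, 8.34, 8.34, 8.20 and 8.18 in WT and 8.43, 8.23, 8.30, 8.03 and 7.97 in Lkb1 KO, a difference of -0.10, and its signal cannot be assigned to either gene. Both probe sets that name Ndufb4 together with Ndufb4b had differences of -0.03. Without Ndufs4 and Ndufs5 the median of the subunits was -0.0464, as with them.

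**Figure D5:**
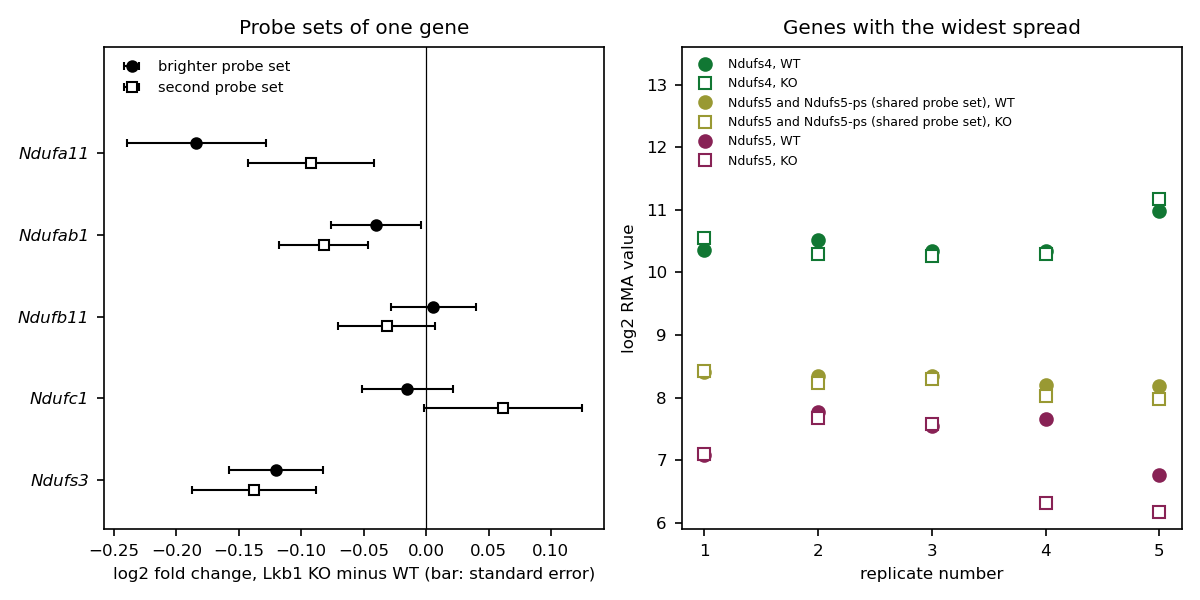
Left, log2 fold change (x axis) with its standard error for the brighter and the second probe set of the 5 Nduf genes that have both (y axis). Right, log2 RMA value (y axis) of Ndufs4, of Ndufs5 and of the probe set shared by Ndufs5 and its pseudogene at each replicate number (x axis) in WT and Lkb1 KO. Ndufb11 and Ndufc1 have probe sets on both sides of 0, and Ndufs4 reaches 10.98 and 11.17 in the samples numbered 5.

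The genes that act outside complex I did not pass the test either. Ndufa4, now known as a subunit of cytochrome c oxidase, had WT values of 10.23, 10.23, 10.24, 10.24 and 10.27 and Lkb1 KO values of 10.26, 10.19, 10.17, 10.13 and 10.17. All Lkb1 KO samples but replicate 1 lay below WT, at a log2 fold change of -0.061 (standard error 0.034, limma adjusted p = 0.456; exact permutation p = 0.0397). Ndufa4l2, its paralog known from hypoxic cells, lay below the median probe set of every array, at 4.87, 4.88, 4.95, 4.93 and 4.91 in WT and 4.88, 4.96, 4.93, 4.88 and 4.88 in Lkb1 KO. These groups overlapped fully, with a log2 fold change of -0.0032 (limma adjusted p = 0.983).

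The promoters of these genes were searched for motifs of factors known to act on respiratory chain genes. NRF1, a nuclear factor that binds many such promoters, was represented by GCGCA and GCGC with any single base N between them, and the ETS family, which includes GABP, by CCGG followed at once by AAGT, each on both strands, and neither motif contains the other. In windows of 300 bases (250 before the start base and 50 after it, RefSeq, GRCm38.p6), 38 of the 43 members had an entry. The NRF1 type occurred in 8 of the 38 (21.1%), against 7.85% of the 15614 tested genes with a window, 28.6% of complex II to V genes and 19.1% of mitochondrial ribosomal protein genes. It was found for 2 of 6 assembly factors and 6 of 31 subunits. The ETS type occurred in 1 member (2.63%), Ndufs3, against 6.01% of the tested genes. A match describes letters in the window and not a bound site. The sequences below show the match, in capitals, for the members whose values are described above, read on the strand of the gene.
Ndufa11, chr17:56717682-56717731, plus strand, NRF1 type from base -60 to -51: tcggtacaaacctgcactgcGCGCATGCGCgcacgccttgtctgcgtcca
Ndufaf5, chr2:140170642-140170671, plus strand, NRF1 type from base 16 to 25: cgctagtcgtagtcccgttgGCGCATGCGC
Ndufs5, chr4:123718255-123718304, minus strand, NRF1 type from base -98 to -89: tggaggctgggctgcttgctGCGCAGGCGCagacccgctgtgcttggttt
Ndufs3, chr2:90904714-90904741, minus strand, ETS type on the opposite strand from base 0 to 7: aagagtcactgcacatttccACTTCCGG
Bases are counted from the start base of the window's transcript as 0, so the matches of Ndufaf5 and Ndufs3 lay at or after it and those of Ndufa11 and Ndufs5 before it. For Ndufaf5 this start lies inside the annotated gene, whose first base is further upstream, so its positions hold for that transcript only. Of the members with the NRF1 type, Ndufa11, Ndufaf5 and Ndufs5 had log2 fold changes of -0.18, -0.24 and -0.40. These were the most negative of the family, an order that was seen in the values and not tested. The value of Ndufs5 was within the spread of its samples (standard error 0.29, limma adjusted p = 0.61), and none of these genes passed the main test. The other members with the NRF1 type were Ndufa5 (-0.02), Ndufa6 (0.01), Ndufa8 (0.01), Ndufaf4 (-0.08) and Ndufs6 (-0.13).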

How the data were processed

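Gene expression was measured on Affymetrix Mouse Gene 1.0 ST arrays from 250 ng of total RNA per pool. The values deposited by the authors are on the log2 scale and cover 35556 probe sets. RMA and Partek 6.6 are named in the submitters' processing notes, MATLAB and a threshold of 0.01 on the false discovery rate in the methods. RMA includes quantile normalization between arrays, so a shift shared by most genes would not be seen. In the platform's annotation 21789 probe sets had 1 gene, 1621 had several and 12146 were unnamed. Where a gene had more than 1 probe set (999 genes), the brightest on average over the 10 arrays stood for it. Nduf symbols were found on 48 probe sets with 1 gene and on 3 with several.

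Genotypes were compared by limma (version 3.58.1, R 4.3.3), using lmFit and eBayes with two-sided tests and no covariate, with Benjamini-Hochberg adjustment over 19938 genes. Exact two-sided permutation tests were made for 17 members, over all assignments of samples and over the 32 within replicate numbers, and are not adjusted. Many of these members were chosen by their small p in the same values, so the exact p-values are not independent support. Summaries used Python 3.11.15 and pandas 2.3.3. On simulated data for this comparison (19938 genes), the test called 95 of 100 genes given a log2 change of 0.5, 97 of 100 given 1, and 8 unchanged genes. The members' differences, from -0.395 to 0.0682, were smaller than the simulated ones. The counts therefore do not tell whether differences of that size would be called. The simulated samples were drawn independently, with no part shared by equal replicate numbers.

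The members, modules, comparison lists and marker lists (sensory neurons, neurons, glia, fibroblasts, pericytes, endothelium, macrophages, red cells, skeletal muscle, proliferation, Y-linked) were chosen with earlier results of these data known. Sample values are given for the 8 members of smallest unadjusted p, those with several probe sets, the 2 core subunits of smallest p, the assembly factors of largest and smallest difference, and Ndufa4 and Ndufa4l2; of other lists up to 3 genes of smallest p are named. The labels give both genotypes replicates 1 to 5. After subtraction of group means, the 5 pairs of equal number correlated across genes at 0.21 to 0.479 and the 20 pairs of unequal number at -0.482 to 0.306. Every equal pair was above the limit of 0.1 set for treating equal numbers as pairs, but unequal pairs also reached values above it. The labels do not say what a number marks. The methods name littermate controls but do not say whether pools of equal number shared litters. The main fit left the number out although the equal pairs met that limit, and the fit with it as a block is an alternative. The labels call the samples biological replicates. Alternatives were other normalizations, tests, weights, filters and probe set rules, the replicate block, a Y-linked covariate, and samples left out; leaving out Ndufs4 and Ndufs5 was added after seeing the data.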

Additional observations from a re-analysis of the deposited data

Results flagged for a closer look

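In 5 of 86 groups of 5 samples (43 genes in 2 genotypes), 1 sample lay far from the other 4 by Dixon's test; chance gives about 1 in 20 groups (5%). Ndufs6, a zinc-binding subunit of the N module, was at 8.18 in WT replicate 5 and at 7.80 to 7.85 in the other WT samples. Ndufs4, of the same module, was at 10.98 in that sample and at 10.34 to 10.52 in the others. Ndufa1, a small membrane-arm subunit, was at 8.04 in WT replicate 1 and at 8.30 to 8.38 in the others. Ndufb7 was at 7.39 in Lkb1 KO replicate 4 and at 7.67 to 7.77 elsewhere in its group. Ndufa3 was at 10.57 in Lkb1 KO replicate 5, only just below the others at 10.60.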

How the results depend on the processing

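The number of members called lower was 0 and became 1 with array weights (Ndufa11) and 1 with the replicate block (Ndufaf5, limma adjusted p = 0.0133); the block changed no other call among the members. Leaving out 1 sample gave 0 to 2 lower (Ndufa11 and Ndufaf7 without Lkb1 KO replicate 1, Ndufaf5 without Lkb1 KO replicate 2). No alternative called a member higher. The median log2 fold change ran from -0.0606 to -0.03 for the subunits and from -0.15 to -0.101 for the assembly factors, and their difference from -0.106 to -0.0594.

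Signs were compared across the alternatives for the 17 members with values in every sample, and 4 of them turned under at least 1 alternative; the remaining members were not compared. Ndufa4l2 was at 0.00685 with array medians aligned, at 0.00807 with array weights and at -0.0172 to 0.00796 with 1 sample left out; it has no value with the dimmest 30% of genes left out. Ndufc1 was at 0.00397 with cyclic loess, 0.0232 as the mean of its probe sets, 0.0103 with the Y-linked covariate, 0.00712 without Lkb1 KO replicates 2 and 5 and -0.0328 to 0.00014 with 1 sample left out. Ndufb11 was at -0.013 as the mean of its probe sets and at -0.00789 to 0.0191 with 1 left out. Ndufs4 was at -0.00966 with array weights, -0.143 with the Y-linked covariate, -0.139 without Lkb1 KO replicates 2 and 5 and -0.157 to 0.125 with 1 left out. The causes were not tested. The Y-linked covariate used 2 genes, Eif2s3y and Uty. With 5 pools a group the median standard error of a single member's log2 fold change was 0.0488.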
